A study of Homo sapiens with 7 samples.

Results

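MAP kinase phosphatases and the Sprouty and SPRED proteins are feedback inhibitors of growth factor and stress signaling. The 10 genes described here were chosen by name from the gene-level RNA-seq table of HEK-293 cells, an established human embryonic kidney line, and all 10 of them were among its 19978 genes. They comprise 7 dual specificity phosphatases (DUSP1, DUSP2, DUSP4, DUSP5, DUSP6, DUSP8 and DUSP10), the Sprouty genes SPRY2 and SPRY4, and SPRED1. Cells were held for 48 h in medium of pH 7.4 with DMSO (control, 2 samples), in medium of pH 6.6 with DMSO (acidosis, 3 samples), or in medium of pH 7.4 with 10 µM of the SR protein kinase inhibitor SRPIN340 in DMSO (2 samples). Each sample was 1 biological repeat of 1 cell line, at 1 dose and 1 time. The values are estimated counts. They are given below as CPM, the usual depth-scaled counts, with library totals adjusted by TMM, which centers the typical gene at no change between samples.

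Cells respond to growth factors and to stress through tiered MAP kinase cascades that end in ERK, JNK or p38. A MAP kinase is active only while a threonine and a tyrosine of its activation loop are both phosphorylated. MAP kinase phosphatases remove both phosphates, and many of their genes are themselves transcribed when a cascade is active. Sprouty and SPRED proteins act further upstream, between the receptor and RAF. SPRED1 brings the RAS inhibitor neurofibromin to the membrane. These genes are therefore widely read as a record of recent MAP kinase activity as well as a brake on it, although transcript levels alone do not measure kinase activity.

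Most of these genes rose in acidosis. Of the 10 genes, 7 were called higher than in control and 0 lower, where 14.4% of the 14863 genes tested were called higher and 19.1% lower. The 10 genes were chosen with earlier results of these data known, so this count is not independent of the data. A call required an adjusted p (Benjamini-Hochberg, edgeR quasi-likelihood test) under 0.05 and a log2 fold change beyond 1 in either direction. The 7 were DUSP1, DUSP4, DUSP5, DUSP6, DUSP8, DUSP10 and SPRY4. The median log2 fold change was 2.01 over the 10 genes and -0.05 over all genes tested. Of the other 3 genes, SPRY2 and SPRED1 passed the adjusted p but not the fold limit, and DUSP2 passed neither. In the lower direction 1 of the 10, SPRED1, had an unadjusted p under 0.05 in edgeR, and DESeq2 also called 0 of them lower. SRPIN340 moved none of the 10 genes past these limits. All 10 passed the filter on low counts. In bulk samples such as these, fewer cells of a type and less RNA per cell cannot be told apart.

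**Figure D1:**
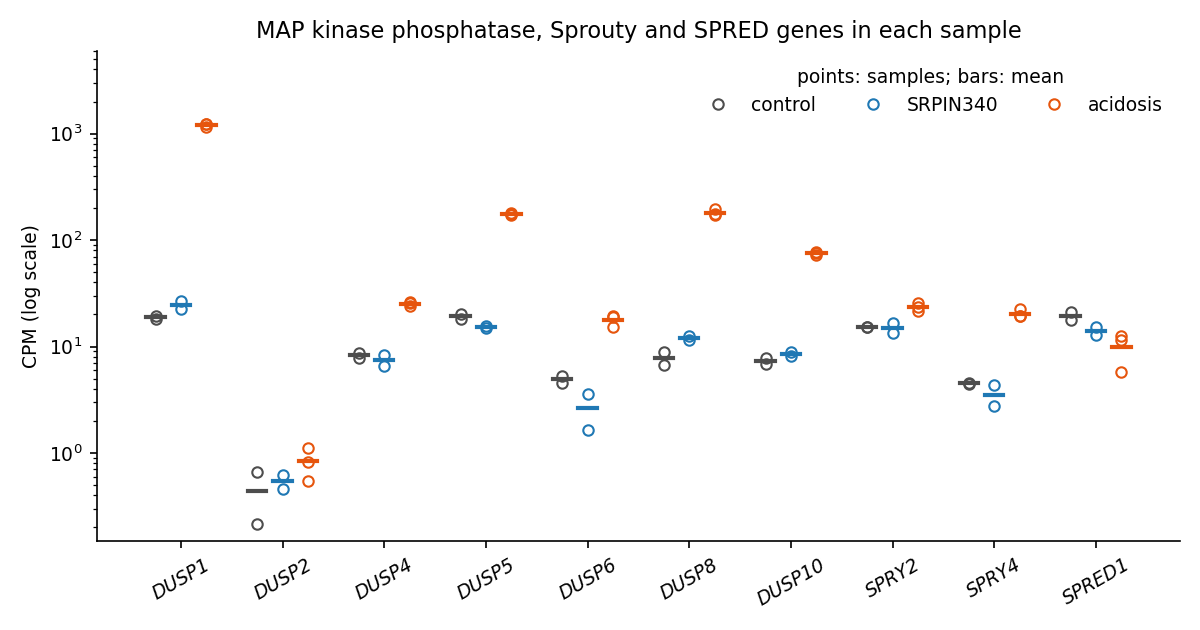
Level of each of the 10 genes in each sample, in CPM on a log axis, for control (grey), SRPIN340 (blue) and acidosis (orange). Open circles are samples and short bars are group means. DUSP1 stands at 18.3 to 19.2 CPM in control and at 1153 to 1241 CPM in acidosis, while the circles of DUSP2 overlap between groups.

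Of the inducible nuclear phosphatases, DUSP1 changed most in acidosis. DUSP1 (ENSG00000120129.6), also known as MKP-1, inactivates p38 and JNK as well as ERK in the nucleus and is a classical immediate-early gene. It was at 18.3 and 19.2 CPM in the control samples, at 26.6 and 22.5 CPM with SRPIN340, and at 1153, 1219 and 1241 CPM in acidosis. The 3 acidosis samples lay close together and far above the other 4. The rise was 64.3-fold (log2 fold change 6.01 ± 0.099, SE, adjusted p = 3.05e-10), and 0.256% of all genes tested had a higher log2 fold change. The counts behind these levels were 508 and 546 in control and 13276 to 19415 in acidosis.

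DUSP5, a nuclear phosphatase specific for ERK, rose 9.09-fold. Its level was 18.2 and 20.2 CPM in control, 15.0 and 15.5 CPM with SRPIN340, and 175, 179 and 171 CPM in acidosis. This is a log2 fold change of 3.18 ± 0.091 (SE, adjusted p = 8.31e-09). The acidosis samples again lay close together. DUSP4, the close relative of DUSP1 also known as MKP-2, was measured at 8.75 and 7.72 CPM in control, 8.26 and 6.61 CPM with SRPIN340, and 25.7, 24.1 and 26.0 CPM in acidosis. Its rise was 3.07-fold (log2 fold change 1.62 ± 0.16, SE, adjusted p = 1.08e-05), a smaller step than those of DUSP1 and DUSP5, with no overlap between acidosis and the other samples.

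DUSP2, a nuclear phosphatase best known from activated lymphocytes and macrophages, was barely present. The gene had 0.216 and 0.667 CPM in control, 0.627 and 0.456 CPM with SRPIN340, and 0.831, 0.551 and 1.12 CPM in acidosis. These correspond to 6 and 19 counts in the control samples, and the groups overlapped. Against control the acidosis estimate was 0.91 on the log2 scale, with a 95% interval from -0.49 to 2.30 (adjusted p = 0.222), so that neither no change nor a 4-fold rise is outside the interval at this depth. The estimate was 0.32 without control replicate 1 and 1.90 without control replicate 2.

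DUSP6 is the cytoplasmic member of the set. It is specific for ERK and is a standard transcriptional readout of ERK signaling. The control samples had 5.30 and 4.56 CPM, those with SRPIN340 3.61 and 1.63 CPM, and those in acidosis 15.1, 19.6 and 18.7 CPM. The 3 groups did not overlap, acidosis being highest and SRPIN340 lowest. The rise in acidosis was 3.60-fold (log2 fold change 1.85 ± 0.29, SE, adjusted p = 0.000289). The annotated exons of DUSP6 share up to 873 bp with a lncRNA on the opposite strand. The strand setting of the quantification is not given in the sources used here, so reads of the pair may not be separable.

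The phosphatases that prefer JNK and p38 also rose. DUSP8, which is known mainly from brain and heart, had 6.66 and 8.85 CPM in control, 11.5 and 12.5 CPM with SRPIN340, and 172, 175 and 197 CPM in acidosis. That is a 23.4-fold rise (log2 fold change 4.55 ± 0.14, SE, adjusted p = 1.20e-08), and 0.599% of genes tested had a higher log2 fold change. DUSP10, also known as MKP-5, had 7.78 and 6.81 CPM in control, 8.22 and 8.92 CPM with SRPIN340, and 72.9, 75.1 and 77.0 CPM in acidosis. Its rise was 10.3-fold (log2 fold change 3.36 ± 0.12, SE, adjusted p = 2.32e-08). For both genes the acidosis samples spread by far less than their distance from control.

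The Sprouty and SPRED genes did not behave as a block. SPRY4 rose from 4.47 and 4.56 CPM in control to 19.3, 22.5 and 19.3 CPM in acidosis, and was at 4.35 and 2.73 CPM with SRPIN340 (log2 fold change in acidosis 2.17 ± 0.21, SE, adjusted p = 1.27e-05). SPRY2, the most studied Sprouty, had 15.3 and 15.1 CPM in control, 13.4 and 16.7 CPM with SRPIN340, and 21.4, 23.5 and 25.4 CPM in acidosis. Its log2 fold change in acidosis was 0.62 ± 0.15 (SE, adjusted p = 0.00388), under the fold limit although the acidosis samples lay above all others. With libraries scaled by total count only it was 0.04 (adjusted p = 0.797).

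SPRED1 pointed the other way. It had 17.7 and 21.1 CPM in control, 15.2 and 12.8 CPM with SRPIN340, and 12.5, 5.78 and 11.4 CPM in acidosis. Acidosis replicate 2 was the lowest sample, and the acidosis values lay below all others. The log2 fold change was -0.95 ± 0.26 (SE, adjusted p = 0.00922), with a 95% interval from -1.54 to -0.36 that spans the fold limit. It passed that limit without control replicate 1 (-1.08), acidosis replicate 1 (-1.16) or acidosis replicate 3 (-1.05). It was -0.69 without acidosis replicate 2, and missed the adjusted p without control replicate 2 (-0.84, adjusted p = 0.0657). SPRED1 was the only 1 of the 10 genes whose call in acidosis against control changed when a library was left out.

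**Figure D2:**
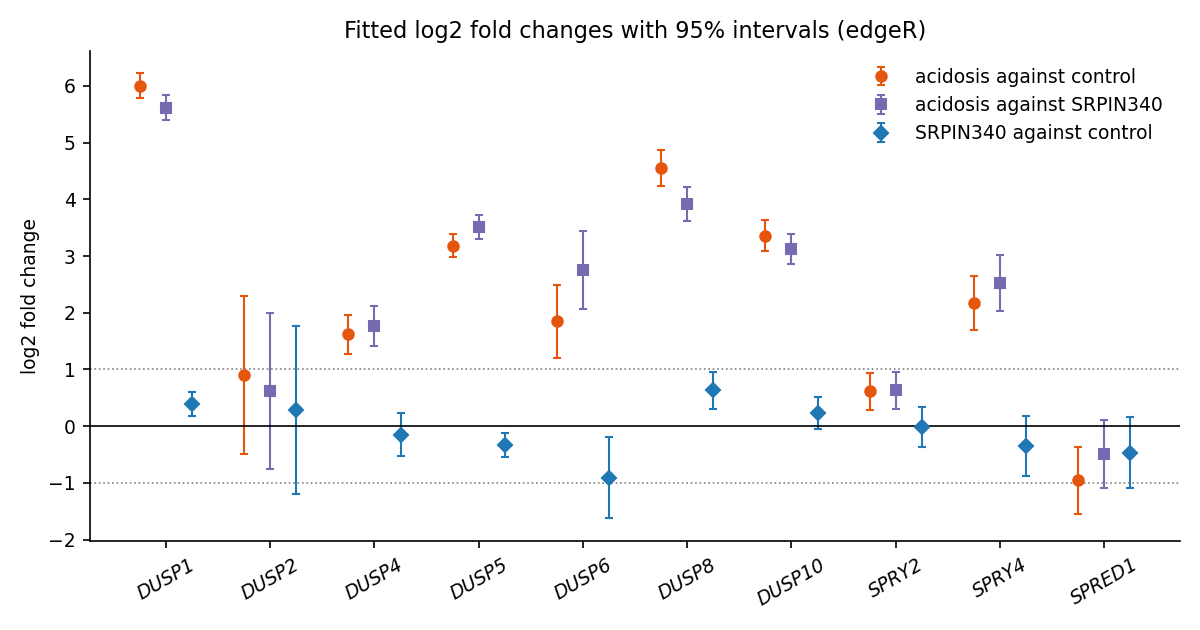
Log2 fold change of each of the 10 genes from the edgeR fit, with 95% intervals, for acidosis against control (orange circles), acidosis against SRPIN340 (purple squares) and SRPIN340 against control (blue diamonds). Dotted lines mark the fold limit of 1 in either direction. The 7 called genes stand above the upper line in both acidosis comparisons, and all SRPIN340 estimates lie between -0.91 and 0.63.

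**Figure D3:**
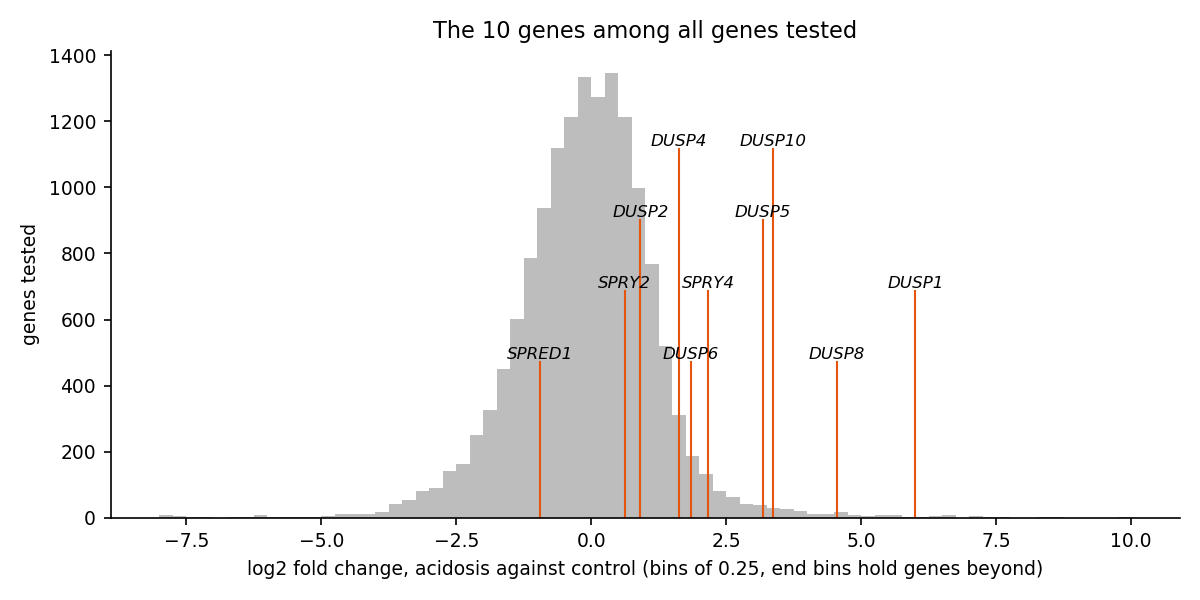
Number of genes tested in bins of log2 fold change in acidosis against control (grey bars), with each of the 10 genes marked by an orange line at its own log2 fold change. The height of the lines carries no value. DUSP1 and DUSP8 stand in the right-hand tail at 6.01 and 4.55, and SPRED1 is the only gene of the 10 on the negative side.

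Since levels of different genes can be compared only per length, CPM were divided by the exonic length of the canonical transcript in kb. On this scale the sum over the 10 genes was 34.8 ± 1.14 CPM per kb for control (SD, n = 2), 35.8 ± 1.07 for SRPIN340 (SD, n = 2) and 761 ± 26.7 for acidosis (SD, n = 3). DUSP1 made up 26.7% of the control sum in both samples, 34.0% ± 2.97 of the SRPIN340 sum (SD, n = 2) and 78.6% ± 0.254 of the acidosis sum (SD, n = 3). Leaving out DUSP1, control summed to 25.5, SRPIN340 to 23.6 and acidosis to 163 CPM per kb. The growth of the summed level was thus mostly DUSP1, while the remaining genes still summed to a level that did not overlap between acidosis and the other groups.

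The order of the genes also differed. In control, DUSP1 (9.31 CPM per kb) was followed by DUSP5 (7.75), SPRY2 (6.66), DUSP10 (2.82) and SPRED1 (2.67), and the ranges of DUSP10 and SPRED1 overlapped. DUSP8 (1.61), DUSP4 (1.48) and DUSP6 (1.36) came next with overlapping ranges between neighbours, then SPRY4 (0.921) and DUSP2 (0.262). In acidosis the order was DUSP1 (598), DUSP5 (70.5), DUSP8 (37.6), DUSP10 (29.0) and SPRY2 (10.2). Below them DUSP6 (4.91), DUSP4 (4.55) and SPRY4 (4.15) could not be ordered beyond their spread, and SPRED1 (1.36) and DUSP2 (0.495) were last. SPRED1 moved from the fifth place to the ninth, and DUSP8 from the sixth to the third. With SRPIN340 DUSP1 was again first and DUSP2 last, the ranges of SPRY2 (6.58) and DUSP5 (6.16) overlapped, as did those of DUSP6 (0.723) and SPRY4 (0.722), and DUSP8 (2.49) stood above SPRED1 (1.93).

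**Figure D4:**
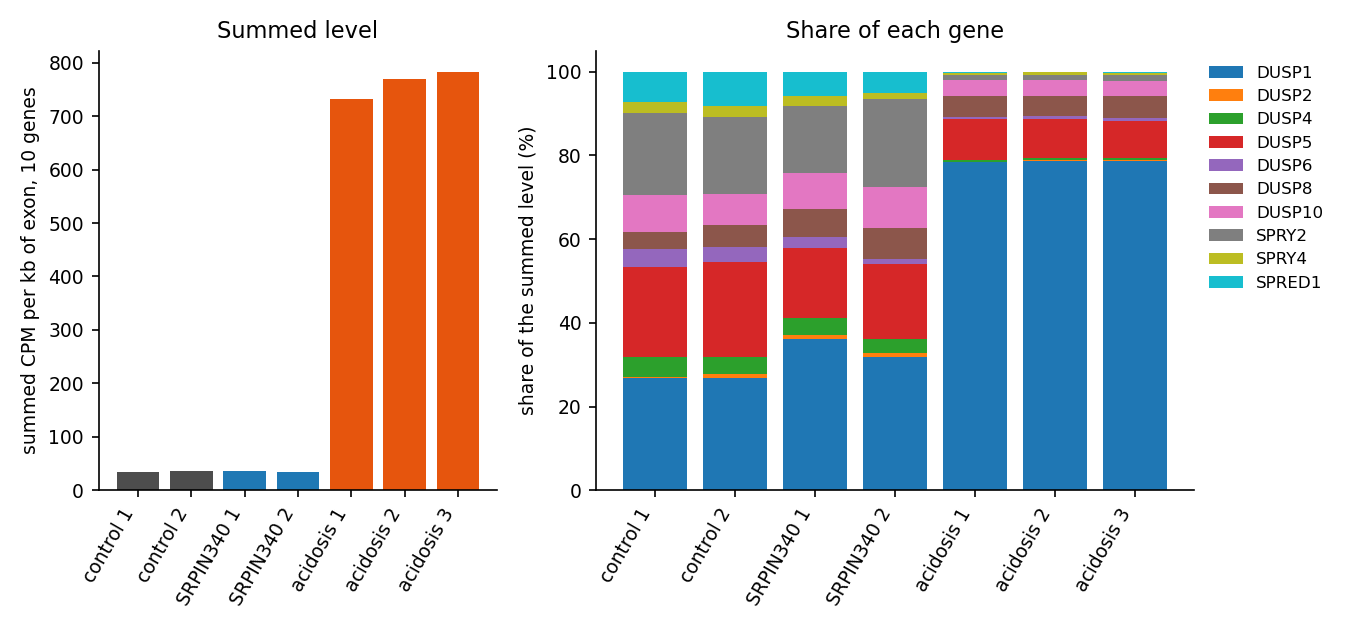
Left, the summed level of the 10 genes in each sample, in CPM per kb of exon. Right, the share of each gene in that sum, in percent. The bars of the acidosis samples reach 731 to 783 against 34.0 to 36.5 in the other samples, and DUSP1 fills 78.3% to 78.8% of them.

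With SRPIN340 the estimates of all 10 genes lay between -0.91 and 0.63 on the log2 scale. None was called in edgeR, with 0.128% of all genes called higher and 0.195% called lower, shares that rest on 19 and 29 genes. At an unadjusted p under 0.05, 2 genes were above control, DUSP1 and DUSP8, and 2 were below it, DUSP5 and DUSP6. Of all 14863 genes tested, 2621 passed that limit in either direction. DESeq2 also called 0, with 3 of the 10 (DUSP1, DUSP5 and DUSP8) at an adjusted p under 0.05 but under the fold limit. The median log2 fold change was -0.08 over the 10 genes and 0.0024 over all genes. DUSP8 had the highest estimate, 0.63 with a 95% interval from 0.30 to 0.96 (adjusted p = 0.0587), and DUSP1 was at 0.39, from 0.18 to 0.60 (adjusted p = 0.0628). DUSP6 had the lowest, -0.91 with an interval from -1.63 to -0.18 (adjusted p = 0.182). That value moved with the SRPIN340 samples, to -1.59 without SRPIN340 replicate 1 and -0.45 without SRPIN340 replicate 2. DUSP5 stood at -0.33 (adjusted p = 0.109), SPRED1 at -0.47 (adjusted p = 0.436) and SPRY4 at -0.35 (adjusted p = 0.493). For SPRY2 the estimate was -0.02 with an interval from -0.37 to 0.33, and for DUSP4 it was -0.15, from -0.52 to 0.23. DUSP10 was at 0.23 (adjusted p = 0.384). The estimate of DUSP2, 0.29 with an interval from -1.19 to 1.76, leaves its direction undetermined.

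Set directly against SRPIN340, acidosis again gave calls for DUSP1, DUSP4, DUSP5, DUSP6, DUSP8, DUSP10 and SPRY4, with 7 of the 10 genes higher and 0 lower, where 14.9% of all genes were called higher and 19.7% lower. This comparison shares its acidosis samples with acidosis against control and its SRPIN340 samples with SRPIN340 against control, so it is not independent of either. No gene of the 10 was below SRPIN340 at an unadjusted p under 0.05 in edgeR, and DESeq2 called 0 lower. DUSP6 stood at a log2 fold change of 2.75 ± 0.31 here against 1.85 ± 0.29 relative to control (SE in both), and at 3.43 without SRPIN340 replicate 1 and 2.29 without SRPIN340 replicate 2. SPRY4 was at 2.52 ± 0.22 (SE, adjusted p = 5.54e-06). DUSP1 and DUSP8 were at 5.62 ± 0.097 and 3.92 ± 0.14 (SE), each lower than relative to control. SPRY2 was at 0.64 (adjusted p = 0.00331), again under the fold limit, and SPRED1 was at -0.49 with a 95% interval from -1.08 to 0.11 (adjusted p = 0.132). DUSP2 was at 0.62 with an interval from -0.75 to 1.99.

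The remaining MAP kinase phosphatases and Sprouty and SPRED genes were mixed. DUSP16, a JNK and p38 phosphatase, rose from 57.4 and 64.2 CPM in control to 267 to 296 CPM in acidosis (log2 fold change 2.22, adjusted p = 3.35e-08). DUSP7, a cytoplasmic ERK phosphatase like DUSP6, was at 0.78 (adjusted p = 0.00103), under the fold limit, and DUSP9 was at -0.48 (adjusted p = 0.266). That makes 1 of 3 called higher, where 14.4% of all genes tested were. Of the other Sprouty and SPRED genes, 2 of 4 were called higher, SPRED3 at 1.64 (adjusted p = 0.000210) and SPRY1 at 1.10 (adjusted p = 0.000193). SPRY1 was at 0.95, under the fold limit, without control replicate 2. SPRED2 was at 0.52 (adjusted p = 0.00358) and turned to -0.05 with total count scaling, and SPRY3 was at -0.55 (adjusted p = 0.188). None of these 7 genes was called with SRPIN340, and none had an unadjusted p under 0.05 there in edgeR, nor did DESeq2 call any.

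Of the 18 atypical dual specificity phosphatases listed, 12 were tested, with 1 called higher, 1 lower and a median log2 fold change of -0.30. The shares over all genes tested were 14.4% higher and 19.1% lower. With total count scaling 0 were called higher and 5 lower, at a median of -0.88. Of all 14863 genes tested, 815 were called higher and 5202 lower with that scaling. DUSP3, which dephosphorylates ERK and JNK without a MAP kinase docking domain, rose from 103 and 108 CPM to 221 to 233 CPM (log2 fold change 1.11, adjusted p = 9.49e-07, but 0.53 and not called with total count scaling). DUSP15, at a log2 fold change of -1.92 (adjusted p = 0.0110), fell from a low level of 1.40 and 1.61 CPM, a call lost without control replicate 2 (adjusted p = 0.0557). PTPRR, a tyrosine phosphatase that binds ERK and p38, was the 1 gene of 3 in its list with enough counts to test. It rose from 0.288 and 0.562 CPM to 3.86 to 4.87 CPM in acidosis (log2 fold change 3.39, adjusted p = 9.92e-05). PTPN5 and PTPN7 were below 0.4 CPM in every sample and were not tested.

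Among 10 further genes of ERK output and receptor feedback, 5 were called higher and 3 lower in acidosis, with a median log2 fold change of 1.07. The shares over all genes tested were 14.4% higher and 19.1% lower. The Ephrin receptor EPHA2 rose to 164 to 201 CPM from 24.2 and 25.3 CPM (log2 fold change 2.85, adjusted p = 4.30e-08). ERRFI1, an inhibitor of the EGF receptor also known as MIG6, rose by a log2 fold change of 2.78 (adjusted p = 8.56e-09). The ETS factors ETV5 and ETV1 went opposite ways in acidosis, ETV5 to a log2 fold change of 2.01 (adjusted p = 9.21e-06) and ETV1 to -1.14 (adjusted p = 0.00700). EPHA4 (log2 fold change -2.06, adjusted p = 2.53e-06) and LRIG1 (-1.32, adjusted p = 0.000142), a negative regulator of receptor tyrosine kinases, fell. The call of ETV1 was lost without control replicate 2 (adjusted p = 0.0602) and without acidosis replicate 2 (log2 fold change -0.90).

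With SRPIN340 none of these 10 genes was called in the edgeR fit of all 7 samples, and 4 of them had an unadjusted p under 0.05, all 4 below control. Over all genes tested, 2621 of 14863 had an unadjusted p under 0.05, in either direction. The lowest estimates were those of the 3 ETS factors. ETV4 was at a log2 fold change of -1.51 (adjusted p = 0.0640), ETV1 at -1.37 (adjusted p = 0.0642) and ETV5 at -0.90 (adjusted p = 0.0609). DESeq2 called 2 of them lower, ETV1 (-1.38, adjusted p = 0.00476) and ETV4 (-1.52, adjusted p = 0.00634). In edgeR, ETV1 was called lower without the filter on low counts (adjusted p = 0.0488), with only the control and SRPIN340 samples in the fit (adjusted p = 0.0284) and without acidosis replicate 2 (adjusted p = 0.0266), and ETV5 was called lower without control replicate 1 (-1.18, adjusted p = 0.0427). The levels of ETV4 were 3.12 and 3.53 CPM in control and 0.700 and 1.63 CPM with SRPIN340. DUSP6, another ERK readout, had its lowest values in the same 2 samples and was not called, as given above. Over the 10 genes of this list, 4 estimates with SRPIN340 were above 0 and 6 below, with a median of -0.11. ETV4 was singled out here after its values were seen.

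The kinases and adaptors of the cascades were called higher in shares near the 14.4% of all genes. Over all genes tested, 19.1% were called lower. In the RAS-ERK cascade 3 of 24 genes were called higher in acidosis and 1 lower, and 19 passed the adjusted p. Their median on the log2 scale was -0.06. At the looser unadjusted p under 0.05, 9 of these 24 genes were above control in acidosis and 10 below. Of all 14863 genes tested, 10384 passed that looser limit in either direction, so passing was common throughout. With total count scaling 1 of these 24 genes was called higher and 8 lower. Over all 14863 genes tested, that scaling called 815 higher and 5202 lower. BRAF (1.60) and ARAF (1.18) rose, ARAF only to 0.60 and without a call with total count scaling. PTPN11, which encodes the phosphatase SHP2, stood at 1.00, at the limit itself (adjusted p = 1.40e-06). It lost its call with total count scaling (0.43). The call was also lost with no filter on low counts, with the filter at 6 CPM and with only the acidosis and control samples in the fit. The same held without control replicate 2, either SRPIN340 replicate or acidosis replicate 2. RASA1, a RAS GTPase-activating protein, fell (-2.03, adjusted p = 1.08e-05). In the JNK, p38 and ERK5 cascades 3 of 23 genes were called higher and 5 lower, with a median of 0.15, and 18 passed the adjusted p. With total count scaling 1 was called higher and 7 lower, and the median turned to -0.43. The kinases MAP2K7 (1.62), which activates JNK, MAP2K3 (1.35), which activates p38, and the p38 substrate MAPKAPK2 (1.27) rose. With total count scaling MAP2K3 (0.78) and MAPKAPK2 (0.69) were not called. MAP3K5, a stress-activated kinase also known as ASK1, had a log2 fold change of -2.40, MAPKAPK3 of -1.96 and MAP3K11 of -1.54. None of the genes of either cascade list was called with SRPIN340 in edgeR or DESeq2, where 4 of 24 and 2 of 23 had an unadjusted p under 0.05 in edgeR. That limit was passed with SRPIN340 by 2621 of all 14863 genes tested.

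**Figure D5:**
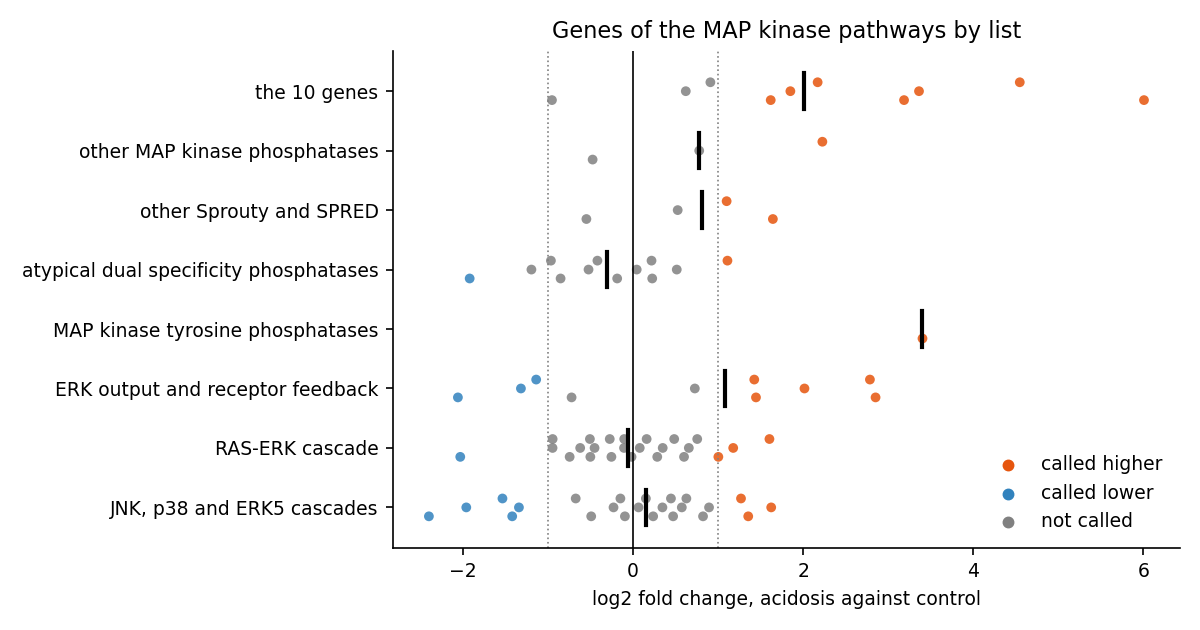
Log2 fold change in acidosis against control for the genes of each list, one point per gene tested, colored by call (orange higher, blue lower, grey not called), with a black bar at the median of the list and dotted lines at the fold limit. The median of the 10 genes stands at 2.01, to the right of the RAS-ERK cascade at -0.06 and of the JNK, p38 and ERK5 cascades at 0.15, which is -0.43 with total count scaling.

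Promoter windows of 300 bases (250 before and 50 after the start, RefSeq, GRCh38.p14) were found for 8 of the 10 genes, all but DUSP4 and DUSP5. Both strands were searched for the cAMP response element (CRE) TGACGTCA, the AP-1 motif TGANTCA, the ETS motif CCGGAA and the CArG box. The windows of DUSP1 and DUSP8, the called genes with the highest log2 fold changes, held the full CRE, once and 2 times. They are shown for that reason, 5′ to 3′ on the minus strand, with the CRE in capitals. The DUSP1 window lies at chr5:172771146-172771445 and the DUSP8 window at chr11:1572222-1572521.
DUSP1: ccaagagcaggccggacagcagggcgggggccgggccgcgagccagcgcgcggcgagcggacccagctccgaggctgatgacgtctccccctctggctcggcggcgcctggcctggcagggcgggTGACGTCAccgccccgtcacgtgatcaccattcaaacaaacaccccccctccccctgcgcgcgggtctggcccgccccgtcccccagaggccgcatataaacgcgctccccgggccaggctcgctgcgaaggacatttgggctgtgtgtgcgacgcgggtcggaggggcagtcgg
DUSP8: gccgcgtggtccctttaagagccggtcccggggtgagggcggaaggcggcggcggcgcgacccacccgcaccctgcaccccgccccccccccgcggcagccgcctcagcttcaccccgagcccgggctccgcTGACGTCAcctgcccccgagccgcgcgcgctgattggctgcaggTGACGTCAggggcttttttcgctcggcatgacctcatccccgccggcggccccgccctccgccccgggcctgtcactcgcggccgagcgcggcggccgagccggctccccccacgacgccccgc

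The first base of the CRE lies at position -125 from the start in DUSP1, and at -118 and -74 in DUSP8. Of 35116 RefSeq windows of this length, 1.85% hold at least 1 CRE and 0.0598% hold 2 or more. The only other match in a window of the 10 genes was an ETS motif in 1 of the 3 windows of SPRY2, at -142, where 17.2% of all windows hold that motif. No AP-1 motif (7.71% of all windows) or CArG box (1.29%) was matched, and CRE and AP-1 motifs as written cannot lie on the same bases. Over the 11830 genes tested that have a window, 14.4% were called higher in acidosis and 19.0% lower. Of the 429 with a CRE, 22.6% were called higher and 10.7% lower, and their median log2 fold change was 0.27. Of the 14 with 2 or more, 5 were called higher and 0 lower. These are counts over windows chosen after the matches in DUSP1 and DUSP8 were seen. DUSP1 and DUSP8 are themselves counted among the 429, and DUSP8 among the 14. The counts are therefore not independent of the matches that prompted them.

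The genes differ in length and structure (GENCODE release 44, GRCh38). DUSP1 lies on chromosome 5 from 172768096 to 172771195, minus strand, and DUSP8 on chromosome 11 from 1554051 to 1572271, minus strand. SPRED1 lies on chromosome 15 from 38252836 to 38357249, plus strand. DUSP1 spans 3100 bp with 4 exons, DUSP2 2272 bp, SPRY2 5151 bp and DUSP6 5267 bp, against a median of 27565.5 bp and 8 exons over the protein-coding genes of the table. DUSP10 (40666 bp) and SPRED1 (104414 bp with 7 exons) are above that median, and the other 4 genes span 13627 to 18221 bp. The pentamer ATTTA, the core of AU-rich elements that shorten mRNA life, occurs 4 times in the 666 bases of the DUSP1 3′ UTR and 0 times in the 1107 bases of that of DUSP5, where the median over genes is 2. At least 4 occur in 34.2% of genes. SPRED1 has 24 in 5585 bases, and 1.83% of genes have at least as many. DUSP8 also has 4, DUSP4 has 6 and SPRY4 has 8, while DUSP6 has 1, so that the called genes covered the range from 0 to 8.

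For each of the 10 genes, the 2 genes with at least 10 CPM on average and the highest Pearson r of log2 CPM over the 7 samples were found. For DUSP1 these were CCN2 and CCN1 (r = 0.9999 and 0.9998), for DUSP8 SLC2A3 and FHL2, for DUSP10 PPP1R15B and ULBP1, and for DUSP5 H3C10 and SPEN. DUSP4 was most like SEM1 and TNPO2, DUSP6 like TRIO and ATP5MC1, SPRY4 like SMN2 and ZNF687, SPRY2 like UBR3 and PPAT, SPRED1 like EHD1 and TAF6L, and DUSP2 like PYGO2 and TMEM141. SMN2 and H3C10 have near-identical copies in the genome, so their counts are uncertain. Within the set, DUSP1 and DUSP10 were most alike (r = 0.998), DUSP4 and SPRY4 paired at r = 0.991, and SPRED1 had no positive partner (highest r = -0.21, with DUSP2). These values describe 7 points in clusters and carry no test.

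The samples held 13615816 to 24110460 counts, the lowest being acidosis samples, and every pair of replicates differed by more than sampling noise. Mean TMM factors were 0.790 in acidosis and 1.18 in control. With total count scaling the median of all genes in acidosis moved from -0.05 to -0.63, and higher genes made up 13.5% of calls in place of 43.0%. The 7 calls among the 10 genes were also made with that scaling, at a median log2 fold change of 1.44, and SPRED1 was then called lower (-1.53, adjusted p = 0.000459). Of 6 HEK-293 markers all were detected and 2 were called higher (VIM and NEFM) and 1 lower (PAX2) in acidosis, their summed level being 1396 to 1440 CPM in control, 1401 to 1460 CPM with SRPIN340 and 3485 to 3500 CPM in acidosis. Most of that sum was VIM, with a mean of 867 CPM in control and 2714 CPM in acidosis. Of the 6 markers, 4 had a log2 fold change above 0 in acidosis against control and 2, KRT18 and PAX2, below 0. Of 5 markers of other cell types, CD3E was at 0 in every sample and the sum lay at 3.28 to 4.63 CPM in control, 4.90 to 6.64 CPM with SRPIN340 and 2.41 to 2.85 CPM in acidosis. PTPRC, 1 of these 5, was called higher in acidosis at under 1 CPM in every sample (adjusted p = 0.0473). The part of these shifts in the results above was not tested.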

How the data were processed

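Poly(A) RNA from 7 samples of HEK-293 cells was sequenced. The authors trimmed the reads (per the labels, Trimmomatic 0.39 and Trim Galore 0.6.6), quantified transcripts with Salmon 1.5.1 on a Gencode GRCh38 transcriptome and deposited gene-level estimated counts from tximport, with no normalization across libraries. Which tximport option was used is not given in the sources used here. If counts were scaled by transcript length, a per-length level depends on that scaling. Replicates within a biological repeat, which the methods mention, are not separate in the table.

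Estimated counts were rounded and tested in R 4.3.3 with edgeR 4.0.16 (TMM, filterByExpr, quasi-likelihood, all 7 samples in 1 fit), with Benjamini-Hochberg adjustment over all genes tested. SE were taken from the test statistic. DESeq2 1.42.0, the tool of the authors, was an alternative, beside other scalings, filters, sample sets, a replicate block, no fold limit and each replicate left out. The tests were checked on simulated counts in which few genes changed, up or down by equal steps. In acidosis many genes were called and the scaling factors differed between groups, a setting that this check does not cover. Totals were 13615816 to 24110460 counts per sample. Gene models were from GENCODE release 44 and promoters from RefSeq, both searched with Python 3.11.15. Plots were made in matplotlib 3.10.9. Named were all 10 genes, in each further list at most 3 called genes per direction by size (lists of at most 4 genes in full), and for each of the 10 the 2 genes most alike. The 10 genes and all lists were chosen with earlier results of these data known. P-values measure the spread between biological repeats of 1 line.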

Additional observations from a re-analysis of the deposited data

How the results depend on the processing

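Across the alternatives, 688 of 728 recomputed values kept their direction and call or, for counts, stayed close. In both acidosis comparisons 7 genes were called higher under every alternative run except that 8, with SPRY2, passed with no fold limit, and 0 of the 10 genes were called with SRPIN340 under any. Passing without a fold limit was common in acidosis. At the looser unadjusted p under 0.05 in edgeR, 10384 of all 14863 genes tested passed against control, and 10515 against SRPIN340. What changed was SPRED1. In acidosis against control 1 gene, SPRED1, was called lower with total count scaling (-1.53), the replicate block (-1.12, adjusted p = 0.0114) or no fold limit, and 0 to 1 over the fits without 1 replicate, where SPRED1 ranged from -1.16 to -0.69. Against SRPIN340 total count scaling also called 1 gene lower, SPRED1 at -1.10. With SRPIN340, estimates near 0 changed sign: SPRY2 to 0.022 with total count scaling. Without 1 replicate, SPRY2 ranged from -0.19 to 0.13, DUSP4 from -0.32 to 0.0034 and DUSP2 from -0.30 to 1.30. DUSP6, with its sign kept, ranged from -1.59 to -0.45. The cause was not tested. The DUSP1 share of the control sum was 27.6% with the longest transcript, and 26.7% without either control replicate. Without 1 replicate it was 31.9% to 36.1% with SRPIN340 and 78.5% to 78.7% in acidosis.

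Total count scaling shifted all genes in acidosis and moved the counts of the further lists, with 1 of 4 other Sprouty and SPRED genes and 3 of 10 ERK output genes still called higher, and 8 of 24 RAS-ERK genes called lower. That scaling called 815 of all 14863 genes tested higher and 5202 lower. Over all genes with SRPIN340, calls numbered 19 higher and 29 lower, and 5 and 22 with the replicate block. Without 1 sample they ranged from 3 to 30 higher and from 8 to 36 lower, the lowest being 3 and 8 without SRPIN340 replicate 1 and 3 and 23 without control replicate 2. They were 9 and 20 without control replicate 1, 6 and 18 without SRPIN340 replicate 2, and at the highest 30 and 36 without acidosis replicate 2. Same-numbered acidosis and control samples had deviations correlated at -0.06 and -0.11, SRPIN340 and control samples at 0.01, and acidosis and SRPIN340 samples at 0.06 and 0.04. In a group of 2 samples the deviations from the group mean mirror each other. These few values therefore cannot settle whether replicate numbers pair the samples. The block changed no other call of the 10 genes. Depth limits DUSP2 above all, which held 6 to 19 counts in control. The filter at 6 CPM left DUSP2 untested in all comparisons, and DUSP6 and SPRY4 in SRPIN340 against control.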
